A study of Mus musculus with 84 samples.

Results

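Forebrain GLASTneg astrocytes of FVB/N mice were compared with a second group of 3 astrocyte libraries that carries 2 names. Of the 84 libraries in the series, 6 entered the comparison, chosen by their sample labels. The first 3 are labelled forebrain ACSA-positive, GLAST-negative and have the same name in the study's supplementary list of highest expressed genes. The other 3 are labelled forebrain ACSA-positive, GLAST-positive (FB GLASTpos) but are named hindbrain GLASTneg (HB GLASTneg) in that list. The columns of that list were matched to the deposited counts over 500 genes, and each column was a constant multiple of a single library. The names were the same for 3 of the 6 libraries and differed for the other 3, and over the 15 acutely isolated libraries they differed for 12. Below, FB GLASTneg denotes the first group, and the second is called the comparison libraries, so that neither of its names is preferred.

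All 6 libraries came from untreated wild-type mice of the inbred strain FVB/N. Cells were dissociated with trypsin and sorted by FACS as living cells without the myeloid antigens CD11B and CD45 and with ACSA-2, an epitope of the ATP1B2 protein. They were then split by surface GLAST, the glutamate transporter encoded by Slc1a3. In the study's dissection the forebrain included the olfactory bulbs, and the hindbrain was the cerebellum with the brain stem. Each library could hold cells of as many as 2 mice, whose age is not given in the sources used here. Nothing says that libraries came from separate animals, so p-values measure only the spread between these libraries, which may be technical. The libraries held between 824608 and 1220327 counts, and 3 counts, taken as the limit of detection, corresponded to between 2.54 and 3.50 CPM (counts scaled to 1e6 per library after TMM correction of library size). Intervals and limits cover counting error only, since copies made by PCR were counted as separate reads.

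Astrocytes keep a record of where in the neural tube they arose. Forebrain progenitors are patterned by transcription factors such as EMX2, LHX2 and DMRTA2, whereas the hindbrain and spinal cord are patterned by HOX proteins in a nested order along the body axis and by PAX, ZIC and IRX factors. Morphogens of the WNT, BMP and retinoic acid families set these domains during development, and mature astrocytes of different regions continue to express part of these programs besides their shared functions in glutamate uptake, potassium buffering and synapse support.

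Dmrta2, a doublesex-related transcription factor of the dorsal telencephalon, was taken as the marker of forebrain astrocytes. It measured 103, 98.2 and 105 CPM in the 3 FB GLASTneg libraries and 5.66, 0 and 0 CPM in the comparison libraries. The groups did not overlap, and Dmrta2 was at 0 in all but 1 of the comparison libraries (log2 fold change 5.67 ± 0.68 SE, adjusted p = 7.3e-10, edgeR quasi-likelihood test). Both groups expressed the genes that define astrocytes. Slc1a2, the main astrocytic glutamate transporter, measured 7483, 8746 and 8112 against 5089.9, 3807 and 3981 CPM, and the glycolytic enzyme gene Aldoc measured 5801, 5275 and 5182 against 6292, 4711 and 5267 CPM. The labelled cell type was thus borne out by its markers in both groups. Dmrta2 was low in the comparison libraries, although they are labelled forebrain. The study, which names these libraries hindbrain in its list, reported Dmrta2 among the genes most enriched in forebrain astrocytes of this series. Its level is therefore not separate evidence on either name. According to the study, its forebrain GLASTpos and GLASTneg populations had no differentially expressed genes between them. Which of the 2 names of the comparison libraries is right was not tested.

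The antigens of the sort were compared as transcripts. Slc1a3, which encodes GLAST, measured 5080.2, 4344 and 4542 CPM in FB GLASTneg and 1989, 1736 and 2091 CPM in the comparison libraries. Its level was therefore 2.40-fold higher in the group labelled GLASTneg, with no overlap (log2 fold change 1.26 ± 0.19, adjusted p = 5.4e-07, edgeR). Atp1b2, which encodes the ACSA-2 protein, measured 4099, 5162 and 4939.9 against 7314, 6769.8 and 8157 CPM and did not pass the test (log2 fold change -0.65 ± 0.19, adjusted p = 0.054). The sort read protein at the cell surface, which these counts do not measure.

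Of 14957 genes tested, 181 (1.21%) were called different, meaning an adjusted p under 0.05 together with an absolute log2 fold change over 1. FB GLASTneg had the higher level for 80 of them (0.535% of genes tested) and the comparison libraries for 101 (0.675%). The count of 101 fell to 63 without FB GLASTneg library 3 and to 60 without comparison library 3, and a fit of the 6 libraries alone called 304 genes. Of the 181, 176 had no overlap between the 3 and 3 libraries, a property that 2246 genes (15%) had across the table. The median log2 fold change of all genes was -0.03, a value that the scaling of the libraries holds near 0. In the plot of difference against level, the called genes span the whole range of expression, from Hoxd4 and Camk4, which were at 0 in FB GLASTneg, to Mfge8 and Slc1a3 among the most abundant.

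**Figure D1:**
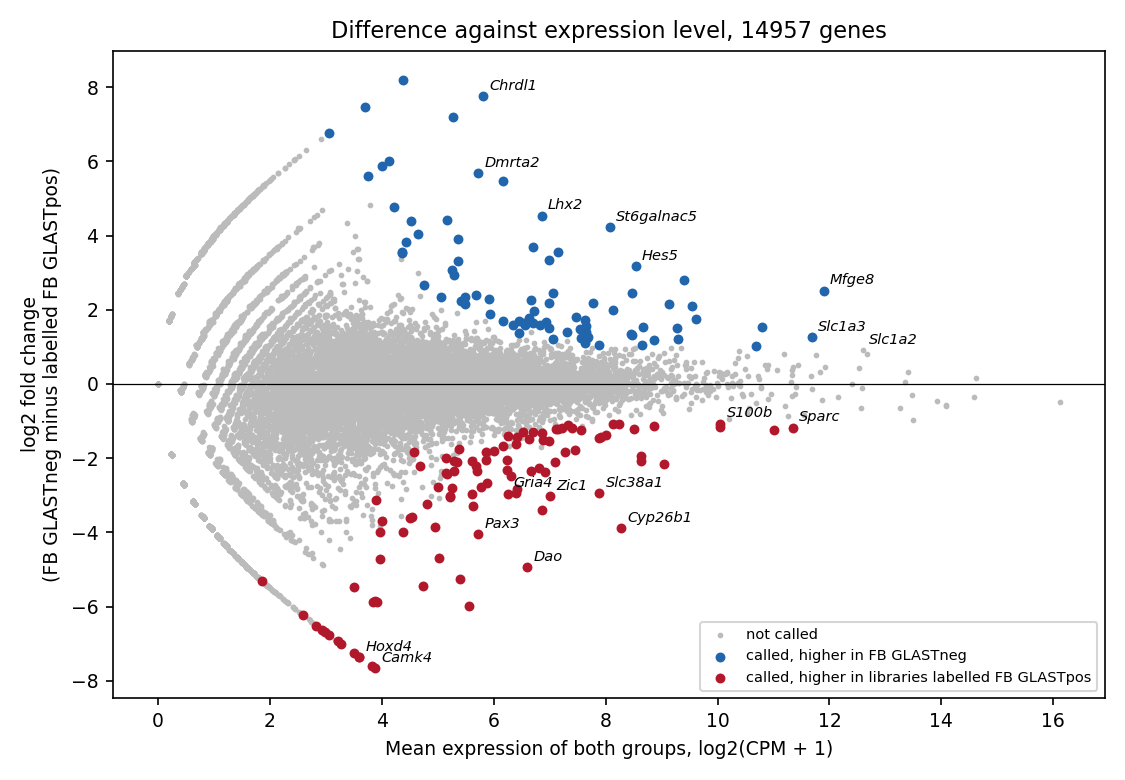
Log2 fold change (FB GLASTneg minus the libraries labelled FB GLASTpos, vertical) against the mean level of both groups as log2(CPM + 1) (horizontal), 1 point per gene, 14957 genes. The 80 called genes higher in FB GLASTneg lie above 1 and the 101 called genes higher in the comparison libraries lie below -1, and the curved rows of grey points at the left are genes with few counts in 1 of the groups.

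Transcription factors that pattern the forebrain separated the groups in 1 direction. Of 28 listed, 18 were expressed enough to be tested, 9 were called higher in FB GLASTneg and 0 were called higher in the comparison libraries. That was 50% of the tested members, against 1.21% of all genes. Dmrta2 is 1 of the 9, and its call repeats a result that the study drew from these data. The list's median log2 fold change was 2.33, or 2.09 with genes that were at 0 in a whole group set to their bound, against -0.03 for all genes. The same 9 genes had no overlap between the groups, where 7.48% of all tested genes did so in that direction. Lhx2, a LIM-homeodomain factor of cortex and eye, measured 193, 283 and 185 against 15.8, 11.5 and 1.07 CPM (log2 fold change 4.54 ± 0.42, adjusted p = 2.2e-14, edgeR). The lowest FB GLASTneg library was thus many times above the highest comparison library for Lhx2, as it was for Dmrta2.

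Further called members stood at lower levels with the same separation. Nr2e1, the orphan nuclear receptor TLX of neural stem cells, measured 103, 69.4 and 53.6 against 5.66, 8.07 and 1.07 CPM (log2 fold change 3.91 ± 0.63). Otx1, a factor of forebrain and midbrain, measured 73.2, 68.6 and 76.9 against 3.39, 15 and 3.21 CPM (log2 fold change 3.33 ± 0.66). Emx2, which patterns the dorsal telencephalon, had 1 comparison library above the limit of detection, with 31.8, 54.2 and 29.1 against 1.13, 1.15 and 5.34 CPM (log2 fold change 3.83 ± 0.80). Six3, a factor of the anterior neural plate and eye field, measured 36.1, 33 and 33.8 against 2.26, 1.15 and 0 CPM, a ratio of 30.6 (exact 95% counting interval 10.2 to 151), and was not called without comparison library 2 or 3, with adjusted p of 0.056 to 0.1. Fezf2, known for corticofugal neurons, measured 25.4, 12.7 and 33.8 CPM in FB GLASTneg and was at 0 in every comparison library, which makes it at least 7.15-fold higher when each comparison library is set to 3 counts. The 9 members that did not pass included Pax6 at 52, 59.3 and 65.3 against 22.6, 111 and 70.5 CPM, a factor used in forebrain and hindbrain alike, and Nr2f1 at 460.2, 536 and 395 against 431, 325 and 419.9 CPM. Genes that overlap with antisense transcripts in the annotation (Emx2 with Emx2os, Six3 with Six3os1, Pax6 with Pax6os1) cannot be told apart from them here, because no source says whether reads were counted by strand.

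**Figure D2:**
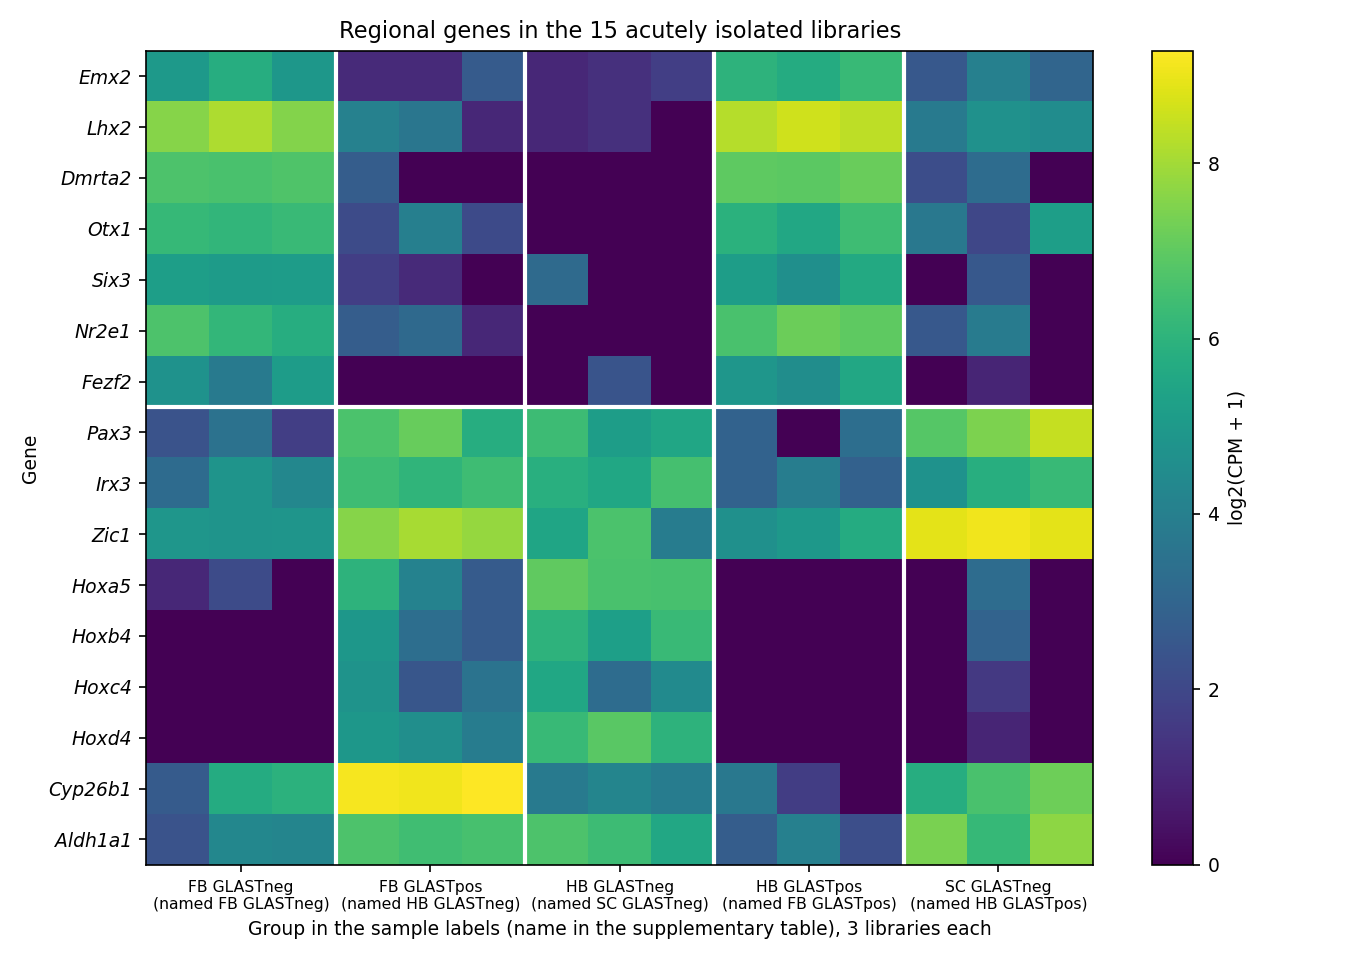
Level as log2(CPM + 1) (colour) of 7 of the 9 called forebrain factors (upper rows) and of the called hindbrain factors, Hox genes, Cyp26b1 and Aldh1a1 (lower rows) in 15 acutely isolated libraries, 3 per group, with the label of each group and below it the name in the supplementary list. The upper rows are bright in the libraries labelled FB GLASTneg and HB GLASTpos and dark in the comparison libraries, where the lower rows are bright.

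The promoters of Dmrta2 and Lhx2 are shown because these genes mark the difference. Each window runs from 250 bases before to 50 after the RefSeq transcription start (mouse build GRCm38.p6, plus strand for both), and capitals mark the GC box GGGCGG on either strand. The window of Dmrta2, chr4:109977775-109978074, holds 0 matches, and the first of the 2 windows of Lhx2, chr2:38339031-38339330, holds 4.
Dmrta2: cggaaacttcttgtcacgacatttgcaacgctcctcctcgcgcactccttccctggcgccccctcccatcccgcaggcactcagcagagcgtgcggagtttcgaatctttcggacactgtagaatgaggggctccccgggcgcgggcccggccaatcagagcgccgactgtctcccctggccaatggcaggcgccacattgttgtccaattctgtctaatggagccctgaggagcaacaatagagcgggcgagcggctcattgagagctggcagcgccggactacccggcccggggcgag
Lhx2: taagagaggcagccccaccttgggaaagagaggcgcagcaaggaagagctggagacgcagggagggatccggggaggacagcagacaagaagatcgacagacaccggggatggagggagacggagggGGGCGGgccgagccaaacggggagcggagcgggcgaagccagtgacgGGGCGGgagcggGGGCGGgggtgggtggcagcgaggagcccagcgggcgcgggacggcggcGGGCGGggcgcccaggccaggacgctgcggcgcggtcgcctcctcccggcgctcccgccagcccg
A GC box was found in 11714 of 32851 windows (35.7%) of all 27025 genes with a RefSeq entry. That background was not limited to the genes tested here, so it is not a like baseline for the called genes. Among the 80 genes called higher in FB GLASTneg, 57 matched a RefSeq entry, and 45 of their 68 windows (66.2%) held it, whereas 44 of 104 windows (42.3%) did so for the 74 matched of the 101 genes called higher in the comparison libraries. These motifs were chosen after the called genes were known, and a match describes letters in a window.

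Hindbrain factors and Hox genes lay in the opposite direction. Of 32 listed hindbrain factors 15 were tested, of which 3 were called higher in the comparison libraries and 0 higher in FB GLASTneg. That was 20% of the tested members, against 1.21% of all genes. Their median log2 fold change was -2.07, and 7 had no overlap in that direction (7.53% of all tested genes did). Zic1, a zinc finger factor of the dorsal neural tube and cerebellar granule cell lineage, measured 28.6, 27.1 and 28 CPM in FB GLASTneg and 190.1, 266 and 223 CPM in the comparison libraries (log2 fold change -3.02 ± 0.35, adjusted p = 2.6e-10, edgeR). Pax3, a paired-box factor of the dorsal neural tube, measured 4.24, 10.2 and 2.33 against 101, 139.5 and 54.5 CPM (log2 fold change -4.04 ± 0.52, adjusted p = 6.5e-09). Irx3, an Iroquois factor that is silent in the telencephalon, measured 8.48, 27.1 and 18.6 against 82.6, 65.7 and 83.3 CPM (log2 fold change -2.07 ± 0.51, adjusted p = 0.0094), and was not called without FB GLASTneg library 1 or 3 or comparison library 1 or 3, with adjusted p of 0.052 to 0.17. Each of these genes had no overlap between the groups, and Zic1 was detected in every FB GLASTneg library.

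Genes of the midbrain-hindbrain boundary and further Iroquois and Zic genes did not pass the test. En1, an engrailed factor of that boundary, measured 0, 5.08 and 1.17 against 37.3, 28.8 and 19.2 CPM (adjusted p = 0.34, edgeR). En2, named besides the genes of the fixed naming rule, measured 4.24, 1.69 and 0 against 17, 17.3 and 15 CPM (adjusted p = 0.43). Irx2 measured 0, 2.54 and 2.33 against 13.6, 13.8 and 47 CPM (adjusted p = 0.13). For these 3 genes the comparison libraries were all above the FB GLASTneg libraries, whereas Zic4, Irx5 and Meis1 overlapped between the groups. Zic4 measured 3.18, 0.847 and 12.8 against 11.3, 33.4 and 57.7 CPM (adjusted p = 0.073, edgeR). Irx5 measured 10.6, 33 and 45.5 against 43, 54.2 and 35.3 CPM, and Meis1 28.6, 73.7 and 37.3 against 91.7, 98 and 67.3 CPM. Of the 15 tested hindbrain factors, 12 had a negative and 3 a positive log2 fold change.

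Hox genes, which specify position from the hindbrain backwards, were near absent in FB GLASTneg. Summed over the 23 tested members, they reached 6.36, 3.39 and 0 CPM in FB GLASTneg and 169, 78.4 and 63.04 CPM in the comparison libraries, of which library 1 was the highest. Of 23 members 4 were called higher in the comparison libraries and 0 higher in FB GLASTneg (17.4% called, against 1.21% of all genes). Their median log2 fold change was -2.51, or -1.40 with bounds. Hoxd4 measured 29.4, 23.1 and 13.9 CPM in the comparison libraries, Hoxb4 29.4, 9.23 and 5.34 CPM and Hoxc4 26, 4.61 and 10.7 CPM, and all 3 were at 0 in every FB GLASTneg library. Against 3 counts per FB GLASTneg library, Hoxd4 was at least 7.20-fold, Hoxb4 at least 4.77-fold and Hoxc4 at least 4.48-fold higher (adjusted p = 5.1e-05, 0.0048 and 0.033, edgeR). Hoxa5 measured 1.06, 3.39 and 0 against 62.2, 16.1 and 5.34 CPM (log2 fold change -4.00 ± 0.89, adjusted p = 0.0027). Without comparison library 1 only Hoxd4 was called, since Hoxb4 and Hoxa5 then had an adjusted p of 0.087 and 0.34, and Hoxc4 was not called without FB GLASTneg library 1, 2 or 3 or comparison library 1 or 3, with adjusted p of 0.07 to 0.22.

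Paralogs of group 4 mark the caudal hindbrain in development, and genes of higher group number are typical of the spinal cord. Hoxb3 measured 7.92, 6.92 and 11.8 CPM in the comparison libraries against 0 in FB GLASTneg (adjusted p = 0.41). Hoxa7 measured 9.05, 0 and 1.07 CPM, Hoxb8 1.13, 1.15 and 5.34 CPM and Hoxc6 0, 3.46 and 1.07 CPM in the comparison libraries, none of them past the test. In the libraries labelled HB GLASTneg (named spinal cord GLASTneg), the same 3 genes measured 64.5, 77.3 and 65.3 CPM, 65.5, 87.5 and 60.6 CPM and 142, 81.7 and 95.6 CPM. Hox genes share loci: Hoxd4 overlaps Hoxd3 and the microRNA gene Mir10b, and Hoxa5 overlaps Hoxa3 on the same strand, so reads at these loci could be assigned to a neighbour or dropped.

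The windows at Hoxd4 (chr2:74721728-74722027) and Hoxb4 (chr11:96318017-96318316, plus strand for both) are shown because these genes were at 0 in 1 group. Capitals mark AGGTCA, a core motif of nuclear receptors such as the retinoic acid receptors, read on either strand.
Hoxd4: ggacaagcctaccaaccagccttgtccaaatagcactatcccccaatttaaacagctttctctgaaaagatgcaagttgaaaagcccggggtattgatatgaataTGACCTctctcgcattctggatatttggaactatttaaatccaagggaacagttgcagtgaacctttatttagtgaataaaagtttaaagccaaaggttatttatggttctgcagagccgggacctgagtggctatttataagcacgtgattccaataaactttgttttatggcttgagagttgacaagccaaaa
Hoxb4: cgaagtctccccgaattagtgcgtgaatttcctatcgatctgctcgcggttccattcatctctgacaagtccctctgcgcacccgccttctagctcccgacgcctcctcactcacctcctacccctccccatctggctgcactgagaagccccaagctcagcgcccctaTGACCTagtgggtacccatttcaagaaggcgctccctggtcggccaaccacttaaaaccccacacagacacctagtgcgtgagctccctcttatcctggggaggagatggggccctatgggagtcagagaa
Each holds 1 match, which lies on the minus strand and reads TGACCT in the line. All 4 called Hox genes had 1 window with a match, whereas 7 of the 24 windows of all listed Hox genes (29.2%) and 5340 of all 32851 windows (16.3%) had one. None of the 7 windows of the 6 matched called forebrain factors held it. With 4 genes chosen for their difference, these shares are a description.

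Genes that make, destroy or block morphogens were spread over both directions. Of 50 tested patterning genes 6 were called higher in FB GLASTneg and 3 higher in the comparison libraries (18% called, against 1.21% of all genes, median log2 fold change 0.47). Cyp26b1, which degrades retinoic acid, measured 5.30, 50.8 and 60.6 CPM in FB GLASTneg and 568, 543 and 621 CPM in the comparison libraries (log2 fold change -3.89 ± 0.41, adjusted p = 6.3e-12, edgeR). The 3 comparison libraries lay close together. Aldh1a1, which makes retinoic acid from retinal, measured 4.24, 18.6 and 17.5 against 102, 85.3 and 94 CPM (log2 fold change -2.78 ± 0.46, adjusted p = 1.1e-05). Enzymes of opposite action on the same morphogen were thus both higher in the comparison libraries. Wif1, a secreted WNT inhibitor, was at 0 in FB GLASTneg and measured 7.92, 4.61 and 3.21 CPM in the comparison libraries, close to the limit of detection (at least 1.71-fold, adjusted p = 0.018), and was not called without FB GLASTneg library 1, 2 or 3 or comparison library 1, with adjusted p of 0.084 to 0.12.

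The called genes higher in FB GLASTneg were mainly secreted antagonists and a receptor. Chrdl1, a secreted BMP antagonist that astrocytes also use to mature synapses, measured 85.9, 57.6 and 185 CPM in FB GLASTneg and 1.13, 0 and 0 CPM in the comparison libraries. Its ratio was 277 (exact 95% counting interval 49.4 to 10995) and its adjusted p 3.6e-13 (edgeR). Sfrp1, a secreted frizzled-related WNT modulator, measured 304, 212 and 170.2 against 20.4, 15 and 32.1 CPM (log2 fold change 3.33 ± 0.36). Frzb, of the same family, measured 45.6, 14.4 and 37.3 against 0, 0 and 1.07 CPM, a ratio of 82.9 (exact 95% counting interval 14.5 to 3309). Frzb is also a marker of olfactory ensheathing glia and was not called without FB GLASTneg library 1 or comparison library 1 or 2, with adjusted p of 0.05 to 0.064. Dkk3, a member of the dickkopf family, measured 205, 178 and 239 against 41.9, 39.2 and 54.5 CPM (log2 fold change 2.19 ± 0.34). Fzd2, a WNT receptor, measured 421, 393 and 529 against 157, 93.4 and 85.5 CPM (log2 fold change 2.00 ± 0.31), and Id3, a target of BMP signalling, measured 266, 242 and 286 against 92.8, 153 and 87.6 CPM (log2 fold change 1.25 ± 0.29) and was not called without comparison library 1 or 3, with adjusted p of 0.087 to 0.12. Hes5, a target of Notch that is no member of the list and was chosen after its values were seen, measured 1033, 336 and 635 against 102, 58.8 and 62 CPM (log2 fold change 3.17 ± 0.30, adjusted p = 4.1e-14).

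**Figure D3:**
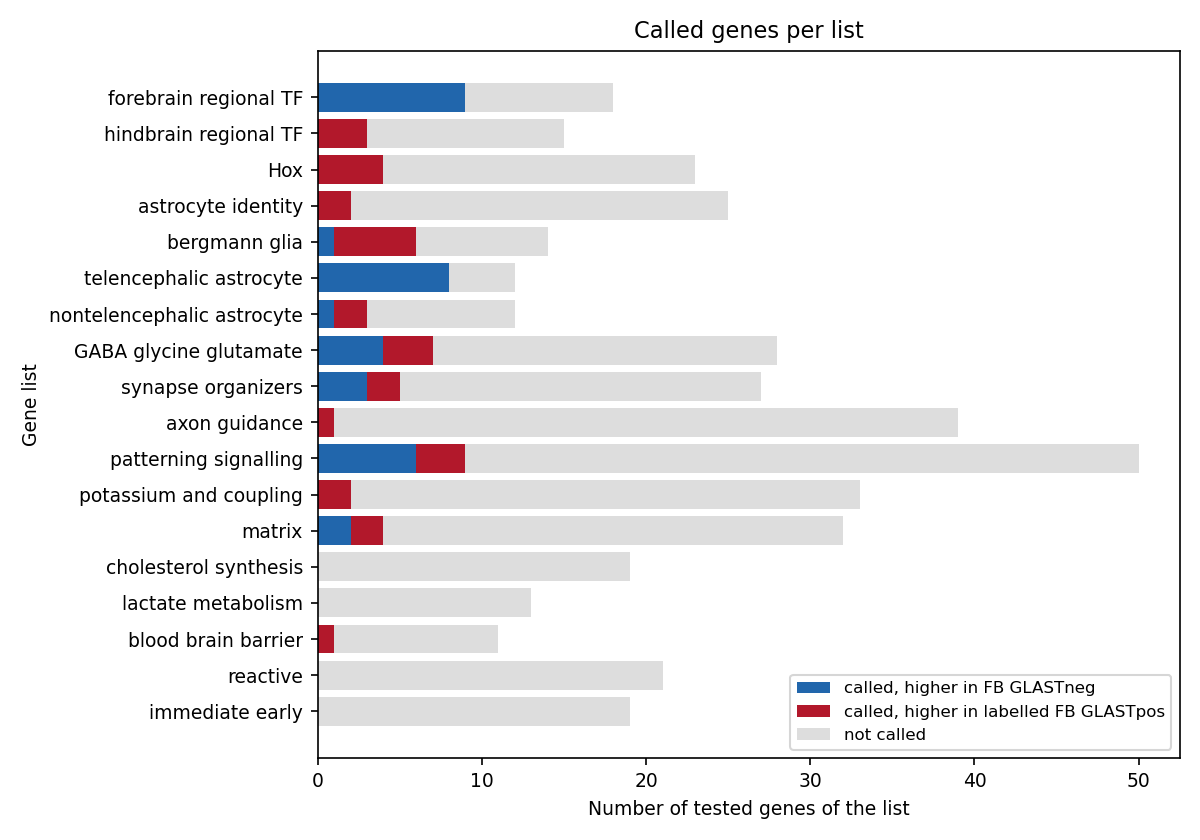
Number of tested genes of each list (horizontal) that were called higher in FB GLASTneg (blue), called higher in the libraries labelled FB GLASTpos (red) or not called (grey). Forebrain factors and telencephalic astrocyte genes hold blue calls only, 9 of 18 and 8 of 12, and no gene was called for cholesterol synthesis, lactate metabolism, reactive or immediate early genes.

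Lists of regional astrocyte genes followed the same division. Of 12 telencephalic astrocyte genes 8 were called higher in FB GLASTneg and 0 higher in the comparison libraries (66.7% called, against 1.21% of all genes). Their median log2 fold change was 3.17. The list shares Lhx2, Emx2, Dmrta2 and other members with the forebrain factors, so it is not separate evidence. It also holds Dmrta2, Chrdl1 and Crym, which the study reported among the genes most enriched in forebrain astrocytes of this series. Their calls therefore repeat a result already drawn from these data. Mfge8, a secreted protein that tags dying material for engulfment, had the highest level of the called members, with 8499.9, 5245 and 5691 CPM in FB GLASTneg and 1433, 778 and 1192 CPM in the comparison libraries (log2 fold change 2.51 ± 0.23, adjusted p = 9.0e-15, edgeR). Crym, a thyroid hormone binding crystallin, varied more within FB GLASTneg, with 56.2, 11.9 and 5.83 against 1.13, 0 and 0 CPM, a ratio of 64.9 (exact 95% counting interval 11.3 to 2597), and was not called without FB GLASTneg library 1, with an adjusted p of 0.13.

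Of 12 nontelencephalic astrocyte genes 2 were called higher in the comparison libraries and 1, Hapln1, higher in FB GLASTneg (25% called, against 1.21% of all genes). Their median log2 fold change was -0.50. Sparc, a secreted matrix-binding protein that limits synapse formation, measured 1103, 1973 and 1708 CPM in FB GLASTneg and 4087, 2717 and 4019 CPM in the comparison libraries (log2 fold change -1.18 ± 0.20, adjusted p = 2.7e-05), and was not called without FB GLASTneg library 1, with a log2 fold change of -0.99 and adjusted p of 0.0073. Hapln1, a link protein of hyaluronan matrix, ran against its list, with 223, 161 and 189 against 9.05, 29.99 and 5.34 CPM (log2 fold change 3.69 ± 0.42, adjusted p = 4.9e-11). Agt, the precursor of angiotensin, measured 707, 758 and 977 against 1654, 1624 and 1386 CPM without overlap, and its log2 fold change of -0.93 ± 0.24 (adjusted p = 0.015) was short of the fold required for a call.

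Genes of Bergmann glia, the radial astrocytes of the cerebellar cortex, were called higher in the comparison libraries for 5 of 14 members and in FB GLASTneg for 1, Npy. That was 42.9% of the list, against 1.21% of all genes, and its median log2 fold change was -0.83. The list holds Mybpc1 and Wif1, which the study reported as most enriched in hindbrain astrocytes of this series, so their calls are not separate evidence. Gria4, an AMPA receptor subunit, measured 19.1, 12.7 and 19.8 against 128, 116 and 154 CPM (log2 fold change -2.95 ± 0.33, adjusted p = 4.4e-11). Gria1, another such subunit, measured 94.4, 101 and 78.1 against 183, 213 and 223 CPM (log2 fold change -1.18 ± 0.25). A2m, a protease inhibitor, measured 1.06, 13.5 and 23.3 against 83.7, 51.9 and 55.6 CPM (log2 fold change -2.34 ± 0.46), and Mybpc1, a myosin-binding protein, measured 1.06, 0 and 0 against 31.7, 20.8 and 28.8 CPM, a ratio of 81 (exact 95% counting interval 14.1 to 3244). The levels of these genes in the comparison libraries were well under those of the libraries labelled spinal cord GLASTneg (named HB GLASTpos), where Gria1 measured 1731, 1545 and 1549.6 CPM, Gria4 907, 854 and 657 CPM, Mybpc1 182, 166 and 250.2 CPM and A2m 447, 373 and 449.7 CPM. Hopx, a homeobox gene of Bergmann glia, measured 101, 98.2 and 67.6 against 109, 223 and 143 CPM (adjusted p = 0.21) beside 1826, 1048 and 1264 CPM in those libraries. Npy, the precursor of neuropeptide Y, measured 110.3, 95.7 and 88.6 against 12.4, 13.8 and 33.1 CPM (log2 fold change 2.29 ± 0.44).

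Genes of astrocyte identity were expressed in both groups, and most were not called. Of 25 such genes 2 were called, both higher in the comparison libraries (8.0%, against 1.21% of all genes). No overlap between the groups was seen for 9 members higher in FB GLASTneg and 4 higher in the comparison libraries. Over all tested genes the shares without overlap in these directions were 7.48% and 7.53%. The list's median log2 fold change was 0.14. Aqp4, the water channel of astrocyte endfeet, measured 1096, 1275 and 1301 CPM in FB GLASTneg and 2475, 2971 and 3175 CPM in the comparison libraries (log2 fold change -1.23 ± 0.21, adjusted p = 1.6e-05, edgeR). S100b, a calcium-binding protein, measured 858, 631 and 562 against 1532, 1112 and 1667 CPM (log2 fold change -1.07 ± 0.24, adjusted p = 0.003). It was not called without FB GLASTneg library 3 or comparison library 3, with log2 fold changes of -0.96 to -0.95 and adjusted p of 0.07 to 0.078, and its locus overlaps Dip2a on the other strand. Slc1a2 and Glul, which encodes glutamine synthetase, passed the adjusted p but not the fold, with log2 fold changes of 0.92 ± 0.19 (adjusted p = 8.5e-04) and 0.77 ± 0.20 (adjusted p = 0.021) and higher values in FB GLASTneg. Apoe, the lipid carrier and one of the most abundant transcripts, measured 12138, 12043 and 11896 against 10052, 9370.4 and 9399.8 CPM (log2 fold change 0.32 ± 0.17, adjusted p = 0.68). The log2 fold change of Aldoc was -0.00 ± 0.18. Gfap, an intermediate filament, was low in both groups at 25.4, 72.8 and 43.1 against 112, 80.7 and 72.7 CPM (adjusted p = 0.55).

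**Figure D4:**
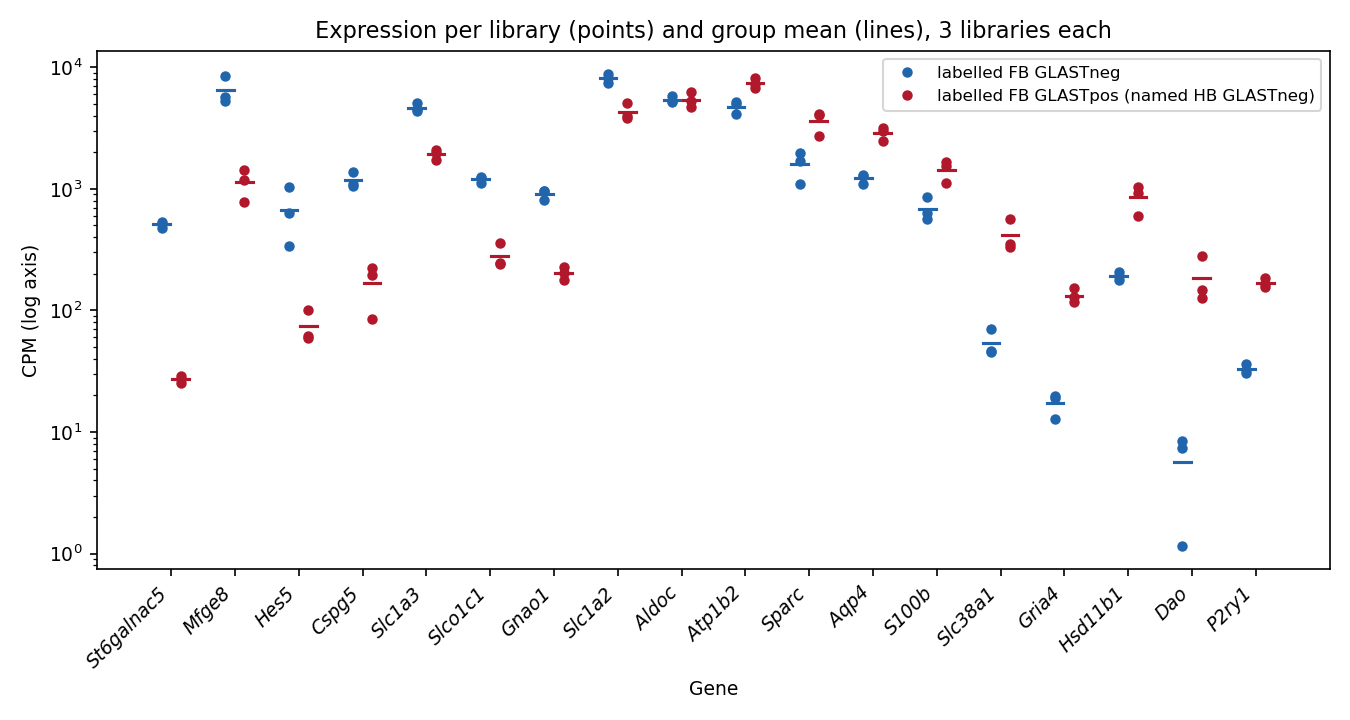
CPM on a log axis (vertical) of 18 genes (horizontal) in each of the 3 FB GLASTneg libraries (blue) and 3 libraries labelled FB GLASTpos (red), with lines at the group means. St6galnac5, Mfge8, Hes5, Cspg5, Slc1a3, Slco1c1 and Gnao1 lie higher in FB GLASTneg, Aldoc lies level, and Sparc, Aqp4, S100b and the genes to their right lie higher in the comparison libraries without overlap.

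Transmitter handling genes were called in both directions, 4 of 28 higher in FB GLASTneg and 3 higher in the comparison libraries. In all 25% were called, against 1.21% of all genes, and the median log2 fold change was 0.29. Glutamate receptor genes lay on both sides. Grm3, the main metabotropic glutamate receptor of adult astrocytes, measured 158, 157 and 184 against 46.4, 38.1 and 19.2 CPM (log2 fold change 2.26 ± 0.37, adjusted p = 9.0e-06, edgeR). Grin2c, an NMDA receptor subunit, measured 615, 524 and 386 against 251, 186 and 173 CPM (log2 fold change 1.32 ± 0.28, adjusted p = 0.0012). Both were higher in FB GLASTneg, whereas the AMPA receptor subunits Gria1 and Gria4 were higher in the comparison libraries. Gria2, a further AMPA receptor subunit, did not pass the test and measured 525, 737 and 548 against 358, 401 and 364 CPM, with no overlap (log2 fold change 0.69 ± 0.24, adjusted p = 0.21, edgeR). Slc1a4, a transporter of serine and other neutral amino acids, measured 607, 589 and 741 against 347, 285 and 221 CPM (log2 fold change 1.18 ± 0.25) and was not called without comparison library 3, with an adjusted p of 0.053. Gabra2, a subunit of the GABA-A receptor, measured 104, 121 and 76.9 against 199, 211 and 241 CPM (log2 fold change -1.11 ± 0.30, adjusted p = 0.027), and was not called without FB GLASTneg library 1 or 3 or comparison library 1, 2 or 3, with adjusted p of 0.054 to 0.31. The GABA transporter gene Slc6a11 measured 5615, 5873 and 6067 against 7727, 4788 and 6514 CPM (adjusted p = 1.00).

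Further amino acid genes outside the lists separated strongly, and the genes of this paragraph were chosen after their values were seen. Slc38a1, a glutamine transporter, measured 69.98, 46.6 and 45.5 CPM in FB GLASTneg and 334, 355 and 565 CPM in the comparison libraries (log2 fold change -2.95 ± 0.31, adjusted p = 3.0e-12). Dao, the D-amino acid oxidase that degrades D-serine, measured 7.42, 8.47 and 1.17 against 148, 126 and 282 CPM (log2 fold change -4.94 ± 0.49, adjusted p = 2.2e-13). Gldc, a subunit of the glycine cleavage system, ran the other way with 79.5, 58.4 and 69.9 against 18.1, 10.4 and 15 CPM (log2 fold change 2.24 ± 0.46, adjusted p = 9.0e-04). Among receptors for other transmitters, P2ry1, a purinergic receptor, measured 36.1, 30.5 and 32.6 against 155, 165 and 186 CPM (log2 fold change -2.35 ± 0.38). Adra2a, an adrenergic receptor, measured 119, 135 and 134 against 319, 405 and 324 CPM (log2 fold change -1.43 ± 0.36) and was not called without FB GLASTneg library 1 or 3 or comparison library 2 or 3, with adjusted p of 0.056 to 0.13. Gnao1, an alpha subunit of inhibitory G proteins, measured 967, 962 and 805 against 229.7, 202 and 178 CPM (log2 fold change 2.16 ± 0.24). The 2 receptor genes were higher in the comparison libraries and Gnao1 in FB GLASTneg.

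Of 27 synapse organizers 3 were called higher in FB GLASTneg and 2 higher in the comparison libraries (18.5%, against 1.21% of all genes). Their median log2 fold change was 0.36. Besides Chrdl1 and Sparc these were Mertk, an engulfment receptor, at 642, 596 and 571 against 289.7, 167 and 163 CPM (log2 fold change 1.54 ± 0.26), and Cadm1, a synaptic adhesion protein, at 911, 755 and 1099 against 355, 311 and 302 CPM (log2 fold change 1.51 ± 0.26). Lgi1, a secreted ligand at excitatory synapses, was higher in the comparison libraries at 199, 385 and 284 against 814, 512 and 594 CPM (log2 fold change -1.14 ± 0.28), and was not called without FB GLASTneg library 1 or 3 or comparison library 1, with log2 fold changes of -1.13 to -0.93 and adjusted p of 0.067 to 0.2. Mertk and Mfge8, a receptor and a bridging protein of engulfment, were both higher in FB GLASTneg. Of 39 axon guidance genes only Epha4, an ephrin receptor, was called, at 143, 141 and 139.9 against 361, 331 and 413 CPM (log2 fold change -1.38 ± 0.28, adjusted p = 5.5e-04, edgeR). Thus 2.56% of this list was called, against 1.21% of all genes.

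The extracellular matrix list was divided, with 2 of 32 genes called higher in each group (12.5%, against 1.21% of all genes). Its median log2 fold change was 0.13. Ncan, the proteoglycan neurocan, measured 525, 600.2 and 501 against 266, 217 and 304 CPM (log2 fold change 1.05 ± 0.26), and like Hapln1 it was higher in FB GLASTneg, but it was not called without FB GLASTneg library 2 or comparison library 1 or 2, with adjusted p of 0.06 to 0.18. Vcan, the proteoglycan versican, measured 20.1, 7.62 and 4.66 against 95.1, 91.1 and 70.5 CPM (log2 fold change -2.97 ± 0.56), and Spock2, the proteoglycan testican-2, measured 22.3, 48.3 and 44.3 against 166, 215 and 172 CPM (log2 fold change -2.26 ± 0.34). Different proteoglycans of the hyaluronan-binding family were thus higher in different groups. Cspg5, the proteoglycan neuroglycan C and no member of the list, measured 1060.4, 1094 and 1381 against 224, 196 and 84.4 CPM (log2 fold change 2.81 ± 0.27, adjusted p = 8.9e-14), and was chosen after its values were seen. Further genes chosen in the same way were higher in the comparison libraries. Cntn1 (contactin) measured 61.5, 98.2 and 74.6 against 209, 311 and 289.5 CPM, Nfasc (neurofascin) measured 83.8, 75.3 and 42 against 209, 219 and 287 CPM and Chl1 (an L1 family member) measured 154, 217 and 204 against 453, 332 and 439 CPM. Chl1 was not called without FB GLASTneg library 1 or comparison library 1, with log2 fold changes of -1.01 to -0.97 and adjusted p of 0.054 to 0.1.

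Ion handling genes were called for 2 of 33 members (6.06%, against 1.21% of all genes), Aqp4 among them. Their median log2 fold change was -0.15. No gene was called by edgeR among 19 cholesterol synthesis genes (2 at an unadjusted p under 0.05), 13 lactate metabolism genes (1), 21 reactive astrocyte genes (3) and 19 immediate early genes (4), and DESeq2 also called 0 in each of these lists. Since only 1.21% of all genes were called, 0 calls in lists this short do not show that the groups were alike. Of the 19 immediate early genes, 3 were higher in FB GLASTneg without overlap and 6 were higher in the comparison libraries without overlap. The shares of all tested genes in these directions were 7.48% and 7.53%. Of 11 genes listed for the blood-brain barrier only Aqp4 was called (9.09%, against 1.21% of all genes). The immediate early gene Fos, which responds to stimulation and to tissue dissociation, measured 13.8, 10.2 and 16.3 against 38.5, 27.7 and 89.7 CPM without overlap (adjusted p = 0.29, edgeR).

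The smallest adjusted p of all belonged to a gene outside the lists. St6galnac5, a sialyltransferase that makes brain gangliosides, measured 539, 477 and 519 CPM in FB GLASTneg and 27.2, 25.4 and 28.8 CPM in the comparison libraries (log2 fold change 4.23 ± 0.31, adjusted p = 1.9e-19). Replicates lay within a narrow range in each group. Like the other genes of this paragraph apart from Prss56, Nptx2, Nupr1 and Glyctk, it was chosen after its values were seen. Slco1c1, a transporter of thyroid hormone, measured 1119, 1237 and 1258 against 361, 243 and 241 CPM (log2 fold change 2.09 ± 0.26). Hsd11b1, which activates glucocorticoids, was higher in the comparison libraries at 179, 190.5 and 209 against 599.7, 1040.3 and 925 CPM (log2 fold change -2.15 ± 0.26). Emid1, an emilin-like matrix protein, measured 2.12, 3.39 and 0 against 43, 63.4 and 134 CPM (log2 fold change -5.25 ± 0.64). Among the genes with the largest change, Nptx2, a neuronal pentraxin that clusters AMPA receptors, measured 110.3, 33.9 and 81.6 against 0, 1.15 and 0 CPM, a ratio of 193 (exact 95% counting interval 34.2 to 7650.3). Nupr1, a stress-induced nuclear protein, measured 39.2, 38.1 and 11.7 against 0, 0 and 1.07 CPM, a ratio of 82.9 (exact 95% counting interval 14.5 to 3309). Prss56, a serine protease, was at 0 in the comparison libraries and measured 71, 26.2 and 21 CPM (at least 11.8-fold), and Glyctk, glycerate kinase, was likewise at 0 there and measured 8.48, 7.62 and 28 CPM (at least 4.38-fold, adjusted p = 0.034). Glyctk was not called without FB GLASTneg library 1 or 3 or comparison library 1, 2 or 3, with adjusted p of 0.05 to 0.27.

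Genes of neurons formed a separate group on the side of the comparison libraries, and 1 of those libraries differed from the others. The 8 neuron markers summed to 19.1, 26.2 and 29.1 CPM in FB GLASTneg and to 33.95, 333 and 259.6 CPM in the comparison libraries. The 6 cerebellar granule neuron markers summed to 0, 0.847 and 0 CPM against 13.6, 133.8 and 141.0 CPM, and 5 of them (Barhl1, Calb2, Cbln1, Cbln3 and Gabra6) were at 0 in every FB GLASTneg library. Comparison libraries 2 and 3 were thus high and library 1 low for both lists. Called members were Rbfox3, Snap25 and Stmn2 of the neuron list and Cbln1, Cbln3 and Neurod1 of the granule neuron list. These were 37.5% and 50% of the lists, against 1.21% of all genes. Rbfox3 was not called without FB GLASTneg library 1 or 2 or comparison library 3, with adjusted p of 0.059 to 0.11, and Cbln1 was not called without FB GLASTneg library 1, 2 or 3 or comparison library 3, with adjusted p of 0.065 to 0.11. Stmn2 and Neurod1 were lost without the same 5 libraries as Cbln3, with adjusted p of 0.061 to 0.51 and 0.071 to 0.39. Cbln3, a cerebellin that granule neurons secrete, measured 3.39, 33.4 and 41.7 CPM in the comparison libraries (at least 8.52-fold, adjusted p = 0.011), and was not called without FB GLASTneg library 1, 2 or 3 or comparison library 2 or 3, with adjusted p of 0.073 to 0.13. Snap25, of the presynaptic fusion machinery, measured 11.7, 6.77 and 8.16 against 18.1, 152 and 93 CPM (log2 fold change -3.30 ± 0.63).

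Of the 101 genes called higher in the comparison libraries, 18 were at least 3 times lower in library 1 than in both others, a criterion chosen after the data were seen. These 18 included Camk4, a calcium-dependent kinase, at 1.13, 26.5 and 54.5 CPM, Scn2b, a sodium channel subunit, at 1.13, 18.5 and 29.9 CPM, and Adcy1, an adenylate cyclase, at 17, 152 and 103 CPM in the comparison libraries. Camk4 and Scn2b were at 0 in FB GLASTneg, and so were Rims4 and Sv2b, synaptic vesicle genes, and Ucma, a matrix protein, which measured 9.05, 6.92 and 23.5 CPM, 15.8, 8.07 and 12.8 CPM and 12.4, 20.8 and 28.8 CPM in the comparison libraries. Camk4 was not called without comparison library 3, with an adjusted p of 0.087. Scn2b was not called without FB GLASTneg library 1, 2 or 3 or comparison library 3, with adjusted p of 0.08 to 0.13. Ucma was not called without FB GLASTneg library 1, 2 or 3 or comparison library 1, 2 or 3, with adjusted p of 0.058 to 0.2, while Rims4 was lost without the same 4 libraries as Scn2b, with adjusted p of 0.079 to 0.13. With comparison libraries 2 and 3 both left out, 23 genes were called higher in FB GLASTneg and 30 higher in the comparison library that remained, which was assumed to vary like the other groups. Of the 101 genes 30 kept their call then, among them Hoxd4, Hoxb4, Hoxa5, Zic1, Pax3, Cyp26b1, Aldh1a1, Dao, Gria4, Slc38a1, Vcan and Sparc. Forebrain factors were called for 3 of 18 in that fit, Dmrta2 and Lhx2 among them. The log2 fold changes of Stmn2 and Kif5c, a kinesin motor gene, changed sign, to 2.65 and 0.54 (adjusted p = 1 for both, edgeR). Neuron and granule neuron markers lost their calls, which the choice of a library low in these markers favoured. The same library was the highest of the comparison libraries for summed Hox genes (169 against 78.4 and 63.04 CPM). Its choice thus favoured the kept calls of Hoxb4 and Hoxa5, which were both lost without it.

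**Figure D5:**
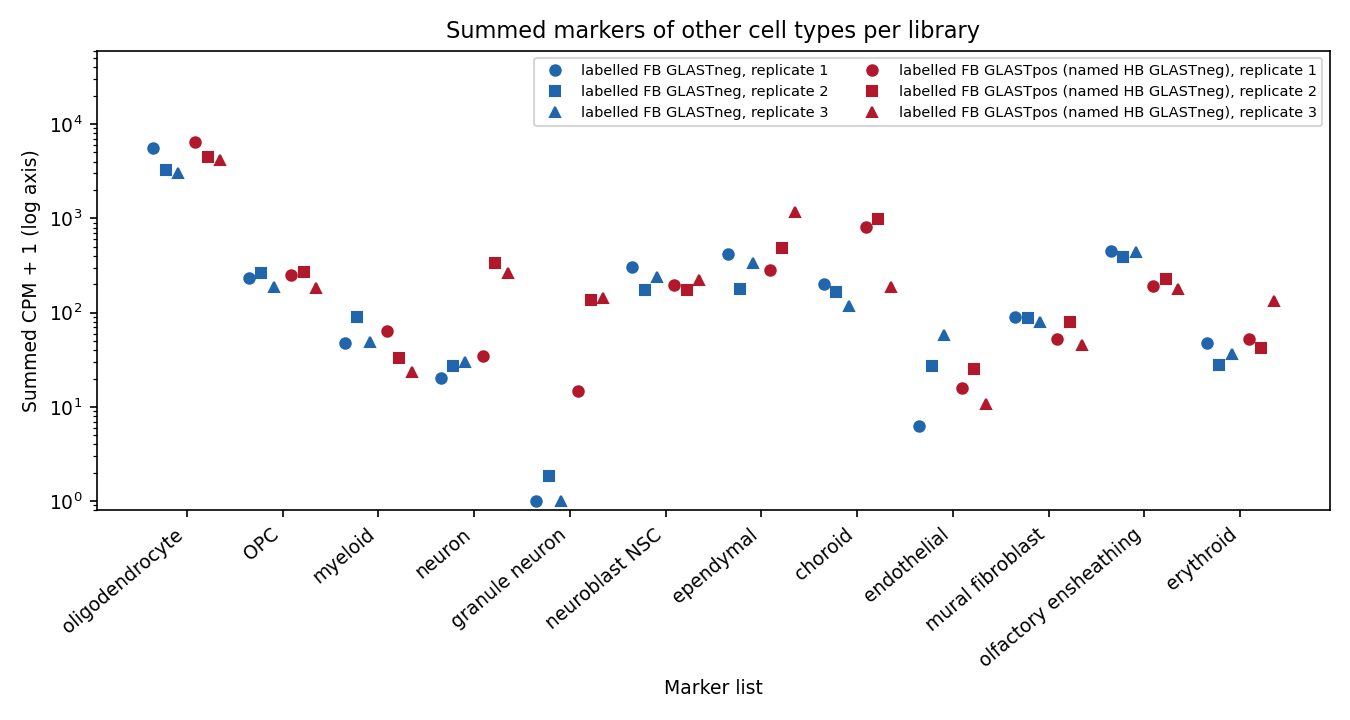
Summed CPM + 1 on a log axis (vertical) of markers of other cell types (horizontal) in each FB GLASTneg library (blue) and each library labelled FB GLASTpos (red), with replicates 1, 2 and 3 as circle, square and triangle. The neuron and granule neuron sums are high in comparison libraries 2 and 3 (333 and 259.6, and 133.8 and 141.0 CPM) and lower in every other library shown, while the oligodendrocyte sums of the groups overlap.

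Markers of most other cell types overlapped between the groups in their sums, and those of olfactory ensheathing glia did not. Oligodendrocyte markers summed to between 3047 and 5588 CPM in FB GLASTneg and between 4120 and 6420 CPM in the comparison libraries, with none of the 10 at 0, and Mbp alone was called, at 293, 190.5 and 179.5 against 569, 642 and 312 CPM (log2 fold change -1.20 ± 0.27), and it was not called without FB GLASTneg library 3 or comparison library 2, with adjusted p of 0.069 to 0.089. Ependymal markers reached 1159 CPM in comparison library 3 and between 175 and 479 CPM in the other 5 libraries, and none was called. Choroid plexus markers summed to between 117 and 200.4 CPM in FB GLASTneg and to 810.2, 987 and 186 CPM in the comparison libraries, nearly all from Ttr, which was called (log2 fold change -2.08 ± 0.38). Myeloid markers, against which the cells were sorted, summed to between 22.4 and 88.9 CPM over the 6 libraries, with Tmem119 and Tyrobp at 0 in the comparison libraries. Olfactory ensheathing glia markers summed to between 390.3 and 455 CPM in FB GLASTneg and between 178 and 224 CPM in the comparison libraries. Their sum was higher still, at 825, 594 and 732 CPM, in the libraries labelled spinal cord GLASTneg (named HB GLASTpos). Of the 7 markers 4 were called (57.1%, against 1.21% of all genes), Prss56, Frzb and Npy higher and Mybpc1 lower in FB GLASTneg (median log2 fold change 2.29). Npy and Mybpc1 also belong to the Bergmann glia list. In such bulk libraries fewer cells of a type and less RNA per cell cannot be told apart, and the part of these cells in the gene differences was not tested.

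The 3 other acutely isolated groups were no side of the contrast, although they shared its filter and its estimate of the spread. Of the 80 genes higher in FB GLASTneg, the mean of the libraries labelled HB GLASTpos (named FB GLASTpos) lay nearer to FB GLASTneg than to the comparison libraries for 80, on the scale of log2(CPM + 1). The count was 9 for the libraries labelled HB GLASTneg (named spinal cord GLASTneg) and 17 for those labelled spinal cord GLASTneg (named HB GLASTpos). Over all 14957 genes the shares nearer to FB GLASTneg were 59.4%, 47.1% and 48.7%. Dmrta2 measured 124, 123 and 142 CPM in the libraries labelled HB GLASTpos, 0 in all 3 labelled HB GLASTneg and 3.61, 8.70 and 0 CPM in those labelled spinal cord GLASTneg.

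Of the 101 genes higher in the comparison libraries, the mean lay nearer to those libraries for 66 in the group labelled HB GLASTneg, for 77 in the group labelled spinal cord GLASTneg and for 18 in the group labelled HB GLASTpos. Over all 14957 genes the counts in the same order were 7908, 7678 and 6068, with ties placed on this side. Hoxd4 measured 74.7, 119.6 and 63 CPM in the libraries labelled HB GLASTneg and 0, 0.966 and 0 CPM in those labelled spinal cord GLASTneg, while Zic1 measured 43, 101 and 14 CPM and 478, 535 and 476 CPM there. Among the acutely isolated FVB/N groups, Cyp26b1 was high in the comparison libraries alone. It measured 13.3, 17.5 and 14 CPM in the libraries labelled HB GLASTneg, 12.2, 2.23 and 0 CPM in those labelled HB GLASTpos and 54.2, 97.6 and 151 CPM in those labelled spinal cord GLASTneg. The comparison libraries thus held Hox genes together with Zic1 and Cyp26b1, a combination that none of the other groups showed at these levels.

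The series also holds unimmunized control libraries of C57BL/6 mice, sorted by the same antigens but with DRAQ5 besides DAPI as viability stains, and deposited as a separate table, with 5 libraries each of hindbrain GLASTneg, hindbrain GLASTpos and spinal cord GLASTneg astrocytes by label. They differ from the libraries above in strain and normalization, so values are placed side by side without a test. Cyp26b1 measured between 387 and 630.0 CPM (median 564) in the hindbrain GLASTneg controls, between 14.9 and 34 CPM (median 26.2) in the hindbrain GLASTpos controls and between 1.29 and 32.9 CPM (median 3.82) in the spinal cord controls. The 568, 543 and 621 CPM of the comparison libraries fall within the range of the first of these. Hoxd4 measured between 22.1 and 51.3 CPM (median 45.7) in the hindbrain GLASTneg controls, between 0 and 7.47 CPM (median 3.25) in the hindbrain GLASTpos controls and between 108 and 268 CPM (median 211) in the spinal cord controls. Zic1 measured between 91.4 and 120.3 CPM (median 102) in the hindbrain GLASTneg controls, between 565 and 694 CPM (median 624) in the hindbrain GLASTpos controls and between 21.8 and 45.4 CPM (median 31) in the spinal cord controls. The 190.1, 266 and 223 CPM of the comparison libraries fall in none of these ranges. Pax3 measured between 56.9 and 69.3 CPM (median 59.6), between 105 and 193 CPM (median 162) and between 16.9 and 54.5 CPM (median 21.5) in the same order, beside 101, 139.5 and 54.5 CPM in the comparison libraries. Aldh1a1 measured between 142 and 221 CPM (median 166), between 185 and 229.5 CPM (median 224) and between 66.1 and 135 CPM (median 89.9), and the 102, 85.3 and 94 CPM of the comparison libraries lay within the last of these ranges and below the others. Dmrta2 measured between 2.46 and 16.8 CPM (median 5.68), between 0 and 6.5 CPM (median 0.25) and between 0 and 2.87 CPM (median 0.859) in the same order. All were well under its level in FB GLASTneg, and the comparison libraries had 5.66, 0 and 0 CPM. Mfge8 measured between 1228 and 1689 CPM (median 1472), between 654 and 955 CPM (median 696) and between 113.5 and 202 CPM (median 160) in that order. Its values were 1433, 778 and 1192 CPM in the comparison libraries and 8499.9, 5245 and 5691 CPM in FB GLASTneg. Of the comparison libraries, that at 1433 CPM fell within the first range, that at 778 CPM within the second and that at 1192 CPM within none.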

How the data were processed

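The authors made QuantSeq 3′ libraries with a forward-strand kit (single reads), aligned the reads to GRCm38 with HISAT 0.1.5, counted them per gene with HTSeq 0.6.1p1 in union mode and deposited the counts, unnormalized and unpooled. The subtype table lists 25773 genes. Because 3′ reads were counted, a level reflects how well a gene's 3′ end is annotated. The libraries of the comparison held between 824608 and 1220327 counts each. Groups follow the sample labels, and no deposited column lacked a sample.

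Genes were kept where the 15 acutely isolated libraries together held 10 counts or more, as in the study (14957 genes), and tested with edgeR 4.0.16 (R 4.3.3, TMM, two-sided quasi-likelihood test, Benjamini-Hochberg adjustment over all genes). The study used DESeq2, which is an alternative here. Errors of log2 fold changes are standard errors (the change over the square root of F), and levels are given for each library. All 15 libraries shared 1 fit, so that every group informed the spread. Alternatives were scaling, filters, DESeq2 1.42.0, tests against a fold threshold, other library sets and a replicate block. Symbols and loci come from GENCODE vM21 and promoter sequences from RefSeq (GRCm38.p6). Tested on counts simulated for this comparison (14663 genes), edgeR recovered all 200 genes that were given an 8-fold change and a mean over 20 counts, and 5.66% of its calls were false.

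Named genes were Dmrta2, every called member of a list with up to 6 uncalled members of the highest level, and the 12 genes with the largest change in each direction among called, annotated genes of at least 10 CPM without overlap. Others are marked where they appear. Some called list members are counted but not reported here by name. The members, lists and rule were chosen with earlier results of these data known. Python 3.11.15 with matplotlib 3.10.9 drew the figures.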

Additional observations from a re-analysis of the deposited data

Results flagged for a closer look

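Groups of 3 libraries were not tested for a library apart. The C57BL/6 control groups of 5 were examined, 21 combinations of gene and group for the 7 genes listed with them. In 2 of these the highest library lay far from the others, where chance alone gives about 1 in 20. Cyp26b1 reached 32.92 CPM in 1 spinal cord GLASTneg control, against a median of 3.82 CPM. Dmrta2 reached 16.75 CPM in 1 hindbrain GLASTneg control, against a median of 5.68 CPM.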

How the results depend on the processing

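No gene among the 181 called changed sign under any of 16 alternative settings, which shared between 40 and 181 of these calls. Tests against the fold threshold itself called fewer genes: glmTreat called 36 higher in FB GLASTneg and 41 higher in the comparison libraries (77 in all), and DESeq2 with the same threshold called 22 and 18 (40 in all). The ordinary DESeq2 test called 85 and 107. A fit of the 6 libraries alone called 304 genes, 184 of them higher in the comparison libraries. Leaving out 1 library gave between 61 and 74 genes higher in FB GLASTneg, between 60 and 95 higher in the comparison libraries and between 121 and 169 in all. The count of genes higher in the comparison libraries fell by more than 1.5 times without FB GLASTneg library 3 (63) or comparison library 3 (60). With comparison libraries 2 and 3 both left out, an alternative chosen after seeing the data, 53 genes were called (23 and 30), and the log2 fold changes of Stmn2 and Kif5c reversed to 2.65 and 0.54 (adjusted p = 1 for both). Fewer libraries give wider errors by construction. For other changes the cause was not tested.

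With the replicate number as a block 212 genes were called (91 and 121), and all 181 calls were kept. Same-numbered libraries did not deviate together (correlations of -0.012, -0.00033 and 0.012 over genes, after removal of the group means). Every gene entered these correlations equally, also those with few counts, whose counting noise lowers them. They therefore cannot exclude that same-numbered libraries came from the same mice. With 3 libraries per group at about 1e6 counts each, a gene under about 10 CPM is known from a handful of counts, which limits what could be seen for most Hox genes.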
